A study of Rattus norvegicus with 15 samples.

Results

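The Slc30 genes encode the ZnT zinc transporters. Their 10 rat members, Slc30a1 to Slc30a10, were taken by gene identifier from the 16832 identifiers of the count table. They were chosen by name, with earlier results of these data known. All 10 were present in the table. Of these, 7 had enough counts to be tested (Slc30a1, Slc30a3, Slc30a4, Slc30a5, Slc30a6, Slc30a7 and Slc30a9), Slc30a10 was near the detection floor, and Slc30a2 and Slc30a8 stayed under it in every library. RNA was sequenced from undifferentiated Odora cells, a rat line labelled as olfactory neuron, in 5 groups of 3 libraries. The groups were 100 µM zinc gluconate, a soluble zinc salt, for 6 h, for 12 h and for 24 h, 200 µM zinc gluconate for 6 h, and control cells, for which no time is given. Whether libraries of a group stem from separate cultures is not stated in the labels, and p-values therefore reflect only the spread among these libraries, possibly technical.

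ZnT transporters move zinc out of the cytosol, either across the plasma membrane or into the Golgi, secretory vesicles, endosomes and lysosomes. The importers of the Slc39 (ZIP) family carry zinc the opposite way, and metallothioneins bind zinc inside the cell. When cytosolic zinc rises in mammalian cells, the zinc-sensing factor MTF-1 binds metal response elements in the promoters of metallothionein genes and of Slc30a1. Members are described in the order plasma membrane, Golgi and secretory pathway, vesicles, mitochondria and manganese export.

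The promoter sequences are shown for Slc30a1, the tested member with the largest ratios to control, and for 3 members that hold the same letters, of which Slc30a4 and Slc30a5 had smaller ratios and Slc30a2 was not detectable. RefSeq windows of assembly GRCr8, running 250 bases before to 50 bases after the annotated start, were at hand for 7 of the 10 members (Slc30a1, Slc30a2, Slc30a3, Slc30a4, Slc30a5, Slc30a6 and Slc30a9), and Slc30a7, Slc30a8 and Slc30a10 had no entry. They were searched on both strands for TGCACNC and TGCGCNC, the core letters of the metal response element. Capitals mark the matches, most of which read on the opposite strand and so appear as GNGTGCA or GNGCGCA. All sequences run 5′ to 3′ on the strand of the gene. The Slc30a1 window (GRCr8 chr13:106021769-106022068, plus strand) is given whole, and the others are stretches of Slc30a4 (chr3:130228858-130228888, minus strand), Slc30a5 (chr2:33710029-33710060, minus strand) and Slc30a2 (chr5:151843350-151843380, plus strand).
Slc30a1: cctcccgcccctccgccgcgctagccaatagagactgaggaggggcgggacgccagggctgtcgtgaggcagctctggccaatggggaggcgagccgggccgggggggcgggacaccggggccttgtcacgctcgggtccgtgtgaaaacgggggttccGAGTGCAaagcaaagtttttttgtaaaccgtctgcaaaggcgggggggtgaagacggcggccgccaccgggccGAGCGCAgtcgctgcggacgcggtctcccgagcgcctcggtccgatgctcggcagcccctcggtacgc
Slc30a4: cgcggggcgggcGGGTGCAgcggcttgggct
Slc30a5: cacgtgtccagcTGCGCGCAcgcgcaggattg
Slc30a2: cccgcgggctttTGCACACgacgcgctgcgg
The Slc30a1 window held 2 matches, beginning 91 and 18 bases before the start. Slc30a4 held 3 matches and Slc30a5 held 2 that overlap each other. Of the 2 annotated starts of Slc30a2, the first had 3 matches and the second had 0. Slc30a3, Slc30a6 and Slc30a9 had 0 matches. Of the metallothionein promoters, Mt1 held 6 matches, Mt2A 4, Mt3 3 and Mt4 1. Across all 33469 rat promoter windows of this length, 24.2% held at least 1 match and 6.36% held at least 2. A match describes these letters only and is not a site of binding.

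Libraries held 10.3 to 35.2 M counts (M, mega). The detection floor was set at 3 counts in a library, or 0.0778 to 0.261 CPM (counts per 1 M counts of the library), which allows for counting error alone. The olfactory label was met in part: 6 of 14 olfactory neuron markers had at least 3 counts in all 15 libraries, with a summed level of 149 to 169 CPM, mostly from Ncam1 (86.0 to 105 CPM). The olfactory marker protein gene Omp was at 0.0778 to 0.703 CPM, and Cnga2, Neurog1 and Gap43 were at 0 in all libraries. Fibroblast markers summed to 5500 to 8800 CPM, mostly from Col1a1 (3340 to 4630 CPM). Under both the 24 h and the 200 µM label, the labels with most exporter calls, edgeR called 4 of the 6 lower than control. Of all tested genes 61% and 60.5% were called under these labels (31.3% and 31.1% lower). Log2 ratios were -1.16 and -1.13 for Col3a1, -1.97 and -2.18 for Dcn, -2.02 and -2.01 for Pdgfra and -2.89 and -3.05 for Lum. Col1a1 (-0.005 and 0.023) and Col1a2 (-0.043 and -0.017) were not called. The part of the fibroblast markers in the exporter results was not tested. The 24 h libraries at 100 µM and the 6 h libraries at 200 µM resembled each other more than their own replicates: each 24 h library had a closest 200 µM library at a chi-square per degree of freedom of 1.36 to 1.42, while libraries within either label differed by at least 3.50. Whether these labels are mistaken or the RNA was shared was not tested, so comparisons of time and dose that use these libraries hold for the labels as given. A summed level of 6 heart muscle transcripts, over plain library totals, was 118, 30.0 and 119 CPM in the controls. It was 54.1 CPM in library 1 of 6 h at 100 µM, and 0.134 to 0.519 CPM in the other 11 libraries.

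Slc30a1, which encodes ZnT1, the exporter of the plasma membrane, rose about 3-fold to 4-fold in every zinc group with TMM scaling. It stood at 98.9, 80.3 and 86.7 CPM after 6 h at 100 µM, at 76.0, 62.7 and 72.6 CPM after 12 h, and at 68.7, 66.8 and 73.0 CPM under the 24 h label. It stood at 73.1, 67.5 and 68.6 CPM under the 200 µM label, against 22.2, 20.9 and 23.9 CPM in control cells. All 12 zinc libraries lay above all 3 control libraries, and the 6 h libraries at 100 µM were the highest. Apart from the summed level of 6 heart muscle transcripts above, CPM here and throughout are counts over library totals scaled by TMM factors. A changed level in bulk RNA cannot be told apart from a changed number of the cells that carry it.

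Against control, the log2 ratio of Slc30a1 was 1.995 ± 0.087 (standard error; 3 libraries a group) after 6 h, a 3.99-fold rise with an adjusted p of 1.58e-11 in edgeR's quasi-likelihood test. After 12 h at 100 µM it was 1.66 ± 0.09 (3.15-fold, adjusted p = 6.46e-10 by edgeR). The 24 h label gave 1.64 ± 0.09 (3.11-fold, adjusted p = 1.26e-11) and the 200 µM label gave 1.64 ± 0.09 (3.12-fold, adjusted p = 1.35e-11). With library totals in place of TMM factors these log2 ratios were 1.96, 1.61, 1.26 and 1.27 in the same order, all called. These 4 comparisons share the control libraries. With a term for the 4 libraries that held heart transcripts, an alternative chosen after seeing the data, the ratios were 2.15, 1.90, 1.88 and 1.89 for 6 h, 12 h, the 24 h label and the 200 µM label, and all 4 rises were called.

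**Figure D1:**
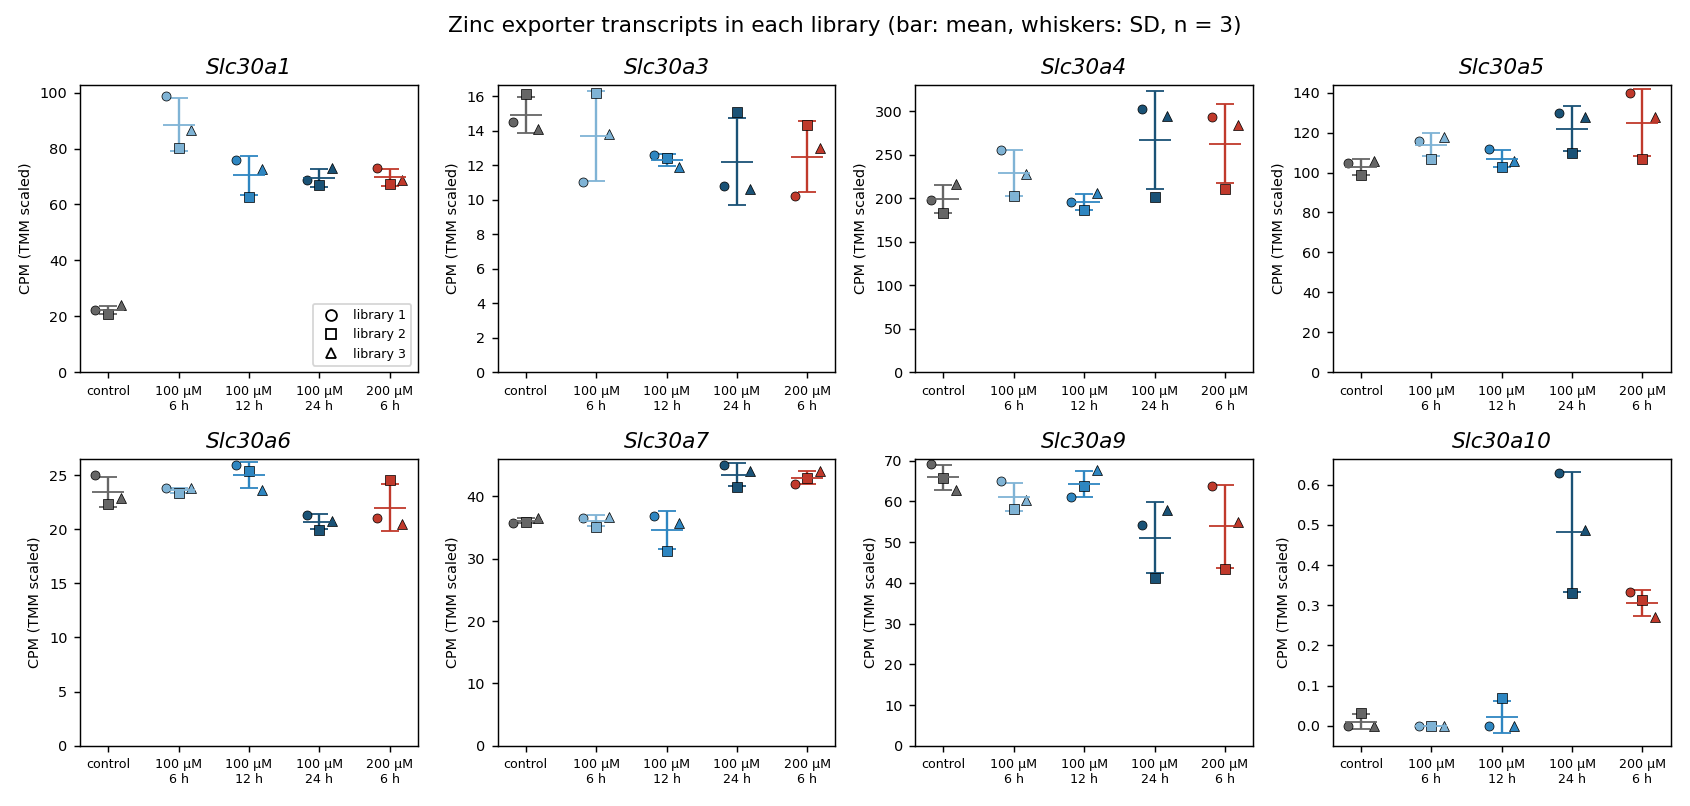
CPM (TMM scaled, vertical axis from 0) of the 8 members with counts above the floor in the 5 groups (horizontal axis); points are single libraries with the marker giving the library number, bars are means and whiskers SD (n = 3). Slc30a1 is the member whose zinc libraries all sit between 62.7 and 98.9 CPM, above control at 20.9 to 23.9 CPM.

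The order of the group means of Slc30a1 was 88.6 ± 9.43 CPM (SD, n = 3) after 6 h at 100 µM, 70.4 ± 6.93 CPM after 12 h, 69.7 ± 2.94 CPM under the 200 µM label, 69.5 ± 3.17 CPM under the 24 h label and 22.3 ± 1.47 CPM in control. The 12 h, 24 h and 200 µM groups overlapped one another. After 12 h, Slc30a1 was lower than after 6 h in every library, with a log2 ratio of -0.34 ± 0.08 and an adjusted p of 0.0652 by edgeR. Its unadjusted p was 0.000761. The call changed with the method, the adjusted p being 0.0198 by DESeq2 and 0.0353 when library 2 of the 6 h group was left out. Leaving out other single libraries gave log2 ratios as near to 0 as -0.25 and adjusted p-values up to 0.39 by edgeR. With the term for heart transcripts the log2 ratio was -0.25 (adjusted p = 0.39 by edgeR). The 24 h label against 12 h gave a log2 ratio of -0.02 ± 0.08 (95% interval -0.20 to 0.16, adjusted p = 0.856 by edgeR), and -0.35 with library totals in place of TMM factors (adjusted p = 0.00138).

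Between the doses labelled 6 h, Slc30a1 was lower at 200 µM than at 100 µM. All 3 libraries at 200 µM (67.5 to 73.1 CPM) lay below all 3 at 100 µM (80.3 to 98.9 CPM). The log2 ratio was -0.35 ± 0.08, a ratio of 0.783, with an adjusted p of 0.00168 by edgeR. Leaving out single libraries gave -0.42 to -0.26, with every adjusted p at most 0.0188, and the term for heart transcripts gave -0.26 (adjusted p = 0.0187). With library totals the log2 ratio was -0.695 (adjusted p = 1.23e-06 by edgeR).

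Slc30a7, which encodes a ZnT of the Golgi and early secretory pathway that loads zinc into secreted enzymes, was higher under the 24 h and 200 µM labels with TMM scaling (though not with library totals, at -0.11 and -0.12 on the log2 scale) and close to control after 6 h and 12 h. It stood at 36.6, 35.1 and 36.7 CPM after 6 h at 100 µM, at 36.8, 31.2 and 35.7 CPM after 12 h and at 45.1, 41.5 and 44.0 CPM under the 24 h label. It stood at 41.9, 43.0 and 44.1 CPM under the 200 µM label, against 35.8, 35.9 and 36.6 CPM in control cells. The 6 libraries of the 24 h and 200 µM labels lay above the other 9. Against control the log2 ratio was 0.27 ± 0.07 under the 24 h label (adjusted p = 0.00217) and 0.25 ± 0.07 under the 200 µM label (adjusted p = 0.00395), both by edgeR. It was 0.00 ± 0.07 after 6 h (95% interval -0.14 to 0.15) and -0.06 ± 0.07 after 12 h (95% interval -0.21 to 0.09).

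Slc30a7 was also called higher in the comparisons that use no control library. The log2 ratio was 0.25 ± 0.07 at 200 µM over 100 µM (adjusted p = 0.00575) and 0.33 ± 0.07 under the 24 h label over 12 h (adjusted p = 0.000597, both by edgeR), with no overlap in either, and with library totals it was -0.09 and 0.00, called in neither. With the term for heart transcripts the ratios to control were 0.30 and 0.28 with adjusted p-values of 0.0702 and 0.0873 for the 24 h and 200 µM labels, while those between doses and times remained called (0.0144 and 0.000832). Since all 3 controls held heart transcripts, these and the zinc exposure cannot be told apart in the controls other than through library 1 of 6 h at 100 µM.

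Slc30a5 and Slc30a6 encode ZnT5 and ZnT6, which form a heterodimer in the early secretory pathway, ZnT6 being the partner that does not itself carry zinc. Slc30a5 stood at 116, 107 and 118 CPM after 6 h at 100 µM, at 112, 103 and 106 CPM after 12 h and at 130, 110 and 128 CPM under the 24 h label. It stood at 140, 107 and 128 CPM under the 200 µM label, against 105, 98.6 and 106 CPM in control cells. Under both labels every library was above control. The log2 ratio was 0.25 ± 0.09 under the 24 h label (adjusted p = 0.0188) and 0.28 ± 0.09 under the 200 µM label (adjusted p = 0.00968), both called by edgeR, and -0.13 and -0.10, not called, with library totals. The first call was lost without library 1 or 3 of the 24 h label or library 2 of the control (adjusted p = 0.0856, 0.0694 and 0.0685), the other without library 1 of the 200 µM label (0.0757), and both with the term for heart transcripts, where the ratios were 0.29 and 0.32 with a standard error of 0.157 each (0.164 and 0.123). After 6 h (0.14 ± 0.09, adjusted p = 0.295) and 12 h (0.06 ± 0.09) Slc30a5 did not pass the test.

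Slc30a6 took the other direction in the later comparison. It stood at 23.8, 23.3 and 23.8 CPM after 6 h at 100 µM, at 25.9, 25.4 and 23.6 CPM after 12 h and at 21.3, 19.9 and 20.8 CPM under the 24 h label. It stood at 21.0, 24.5 and 20.5 CPM under the 200 µM label, against 25.0, 22.3 and 22.9 CPM in control cells. The 3 libraries of the 24 h label were below all libraries of the 12 h group and of the control. Slc30a6 fell under the 24 h label against 12 h, by a log2 ratio of -0.27 ± 0.08 (adjusted p = 0.00943 by edgeR). Against control the ratio was -0.18 ± 0.08 (adjusted p = 0.0576 by edgeR), and 0.0462 with the replicate number as a block, in which library numbers were taken as pairs. Under the 200 µM label it was -0.09 ± 0.08 (adjusted p = 0.342).

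Slc30a4, a ZnT of the trans-Golgi and endosomal vesicles that in mice is needed to put zinc into milk, had its highest libraries under the 24 h and 200 µM labels. It stood at 256, 203 and 228 CPM after 6 h at 100 µM, at 196, 187 and 206 CPM after 12 h and at 303, 201 and 295 CPM under the 24 h label. It stood at 294, 211 and 284 CPM under the 200 µM label, against 198, 183 and 216 CPM in control cells. Libraries 1 and 3 of both labels lay far above control and library 2 lay within it. The log2 ratio to control was 0.42 ± 0.14 under the 24 h label (95% interval 0.12 to 0.72, adjusted p = 0.0174) and 0.41 ± 0.14 under the 200 µM label (adjusted p = 0.0219, both by edgeR). With library totals these were 0.05 and 0.03, not called. Against 12 h the 24 h label gave 0.44 ± 0.14 (adjusted p = 0.0164), and 0.11 with library totals (adjusted p = 0.509).

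The calls of Slc30a4 rested on single libraries. Without library 1 or 3 of the 24 h label or library 2 of the control, its adjusted p against control was 0.091, 0.077 and 0.0667. Without library 1 or 3 of the 200 µM label or library 1 or 2 of the control it was 0.0979, 0.0827, 0.0577 and 0.0794, and without library 2 of the 12 h group or library 1 or 3 of the 24 h label it was 0.0566, 0.0842 and 0.0713 against 12 h. At 200 µM over 100 µM the ratio was 0.20 ± 0.14 (adjusted p = 0.253 by edgeR).

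Slc30a3, the ZnT of glutamatergic synaptic vesicles, was low in all groups. It stood at 11, 16.2 and 13.8 CPM after 6 h at 100 µM, at 12.6, 12.4 and 11.9 CPM after 12 h and at 10.8, 15.1 and 10.6 CPM under the 24 h label. It stood at 10.2, 14.3 and 13 CPM under the 200 µM label, against 14.5, 16.1 and 14.1 CPM in control cells. The 12 h libraries were below all controls, and the other groups overlapped control. No ratio to control passed edgeR's test, at -0.16, -0.28, -0.29 and -0.25 for 6 h, 12 h, the 24 h label and the 200 µM label, with adjusted p-values of 0.48, 0.32, 0.0997 and 0.158. With library numbers as a block the ratio under the 24 h label was -0.29 with an adjusted p of 0.0232, and without library 2 of that label it was -0.48 (0.00972). Under the 24 h and 200 µM labels it was called lower with the term for heart transcripts, at -0.73 (0.0233) and -0.70 (0.031), and with library totals, at -0.66 (0.000555) and -0.63 (0.00109).

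Slc30a9 encodes ZnT9, described in human cells as a zinc exporter of mitochondria. It stood at 64.9, 58.2 and 60.3 CPM after 6 h at 100 µM, at 61.2, 63.9 and 67.7 CPM after 12 h and at 54.2, 41.2 and 57.9 CPM under the 24 h label. It stood at 63.7, 43.3 and 54.9 CPM under the 200 µM label, against 69.1, 65.7 and 62.8 CPM in control cells. Library 2 of each label was the lowest of all, and library 1 of the 200 µM label lay within control. Slc30a9 fell by edgeR's test under the 24 h label, with a log2 ratio of -0.37 ± 0.12 to control (adjusted p = 0.013) and -0.33 ± 0.12 to 12 h (adjusted p = 0.0289), and under the 200 µM label with -0.29 ± 0.12 to control (adjusted p = 0.0467).

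Without library 2 of the 24 h label the ratio of Slc30a9 to control was -0.23 (adjusted p = 0.0726), and without library 2 of the 200 µM label it was -0.15 (adjusted p = 0.233). The 200 µM call was also lost without library 3 of that label (0.0836) or any one control library (0.0548 to 0.126), and the call against 12 h without library 2 of the 24 h label or library 2 or 3 of the 12 h group (0.145, 0.06 and 0.0949). With the term for heart transcripts the ratios to control were -0.24 (adjusted p = 0.411) and -0.16 (adjusted p = 0.598) under the 24 h and 200 µM labels, and the 200 µM call was lost with DESeq2 size factors (0.0539) and with no filter (0.0503). Rat RefSeq lists a pseudogene, Slc30a9-ps1, whose reads the counting may have shared.

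Slc30a10, a manganese exporter in human and mouse, had counts chiefly under the 24 h and 200 µM labels. It had 0, 0 and 0 counts after 6 h at 100 µM, 0, 1 and 0 after 12 h, and 10, 6 and 7 under the 24 h label. It had 4, 4 and 4 counts under the 200 µM label, against 0, 1 and 0 in control cells. All 6 libraries of the 24 h and 200 µM labels were above the floor of 3 counts, and the other 9 were below it. Summed over libraries and scaled to TMM-scaled library totals, the ratio to control was 41.4 (exact counting interval 6.72 to 1700) under the 24 h label and 26.3 (3.89 to 1120) under the 200 µM label, and 31.8 and 20.3 with plain library totals. Against 6 h at 100 µM, which had 0 counts, the 200 µM label gave a ratio of 6.39 to a floor of 3 counts over the group, and the lower end of the exact 95% counting interval was 4.44, or 3.5 with plain library totals.

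The filter on low counts left Slc30a10 out of the test. An exact two-sided permutation test of 3 libraries against 3 gave p = 0.1 for the 24 h label against control, the smallest it allows. Fitted without the filter, its adjusted p against control was 2e-05 under the 24 h label and 0.000615 under the 200 µM label by edgeR, and 0.00049 and 0.0031 by DESeq2. The long noncoding RNA gene LOC100911719 overlaps Slc30a10 in RefSeq, and the strand setting of the counting is not given in the sources used here.

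Slc30a2, the ZnT of secretory vesicles that in human mothers supplies milk zinc, had 1 count in each of 3 libraries (library 2 of 6 h at 100 µM, library 2 of the 24 h label and library 1 of the 200 µM label) and 0 in the other 12. Slc30a8, the ZnT of the insulin granules of pancreatic beta cells, had 0 counts in all 15 libraries, which allows up to 3 counts, or 0.0778 to 0.261 CPM. Neither was detectable at this depth, and no ratio is given for them.

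Counted over the 7 tested members, edgeR called 1 higher and 0 lower after 6 h at 100 µM against control, where 17.2% of all 10575 tested genes were called (9.1% higher and 8.1% lower). After 12 h it called 1 higher and 0 lower, with 6.33% of all genes called (3.36% higher and 2.97% lower). Groups did not overlap for 2 members after 6 h (Slc30a1 and Slc30a5) and for 2 after 12 h (Slc30a1 and Slc30a3), against 35.5% and 27.4% of all genes. In both the called member was Slc30a1, and the median log2 ratio of the members (0.01 and -0.02) lay at that of all genes (0.00 and 0.00).

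Under the 24 h label 4 members were higher and 1 lower than in control, against 61% of all genes called (29.7% higher and 31.3% lower). Under the 200 µM label the count was again 4 higher and 1 lower, with 60.5% of all genes called (29.4% higher and 31.1% lower). The higher ones were Slc30a1, Slc30a4, Slc30a5 and Slc30a7 and the lower one was Slc30a9, in both. With most genes called, 5 of 7 members is near the share of all genes. Groups did not overlap for 5 tested members under the 24 h label and for 3 under the 200 µM label, against 64.2% and 63.7% of all genes. The members' median was 0.25 in both, beside -0.02 over all genes. Taking library numbers as a block raised the count under the 24 h label to 7 of 7, by adding Slc30a3 and Slc30a6 as lower. Among all 10575 tested genes the block also raised the calls, from 6449 to 6927. The count of members fell to 3 without library 1 or 3 of the 24 h label (Slc30a1, Slc30a7 and Slc30a9 called). Under the 200 µM label it fell to 3 without library 1 or 3 of that label or library 1 or 2 of the control. With the libraries of the other label left out of the fit, an alternative added after seeing the data, 5 members were called under each label, but the labels share the controls and their libraries are alike, so this is not independent of the counts above.

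**Figure D2:**
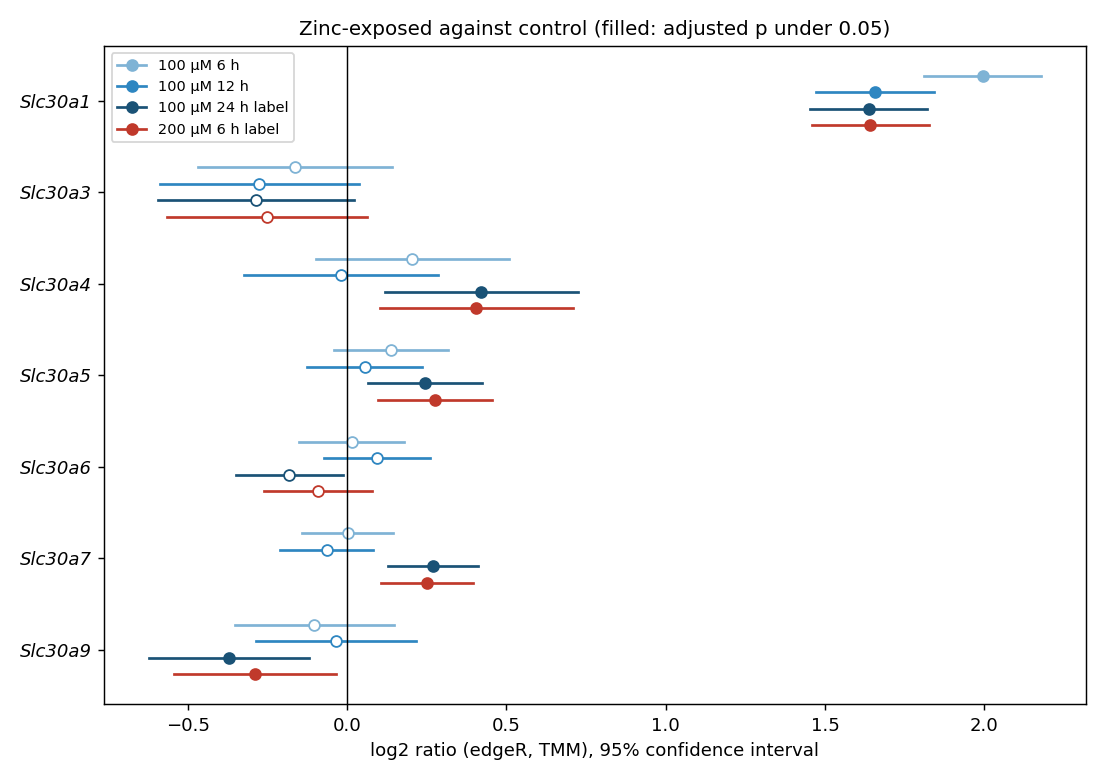
Log2 ratio to control (horizontal axis, edgeR with TMM scaling) of the 7 tested members in the 4 zinc groups; lines are 95% confidence intervals and filled points have an adjusted p under 0.05. Slc30a1 lies between 1.64 and 1.995 in all 4 groups, and every other tested member between -0.37 and 0.42; with library totals Slc30a5 and Slc30a7 fall below 0 under the 24 h and 200 µM labels.

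Between doses, 1 member was higher and 1 lower at 200 µM than at 100 µM (Slc30a7 and Slc30a1), where 53.6% of all genes were called (26.5% higher and 27.1% lower). Groups did not overlap for these 2 members, against 58.9% of all genes. Slc30a3, Slc30a4, Slc30a5, Slc30a6 and Slc30a9 had ratios of -0.09, 0.20, 0.14, -0.11 and -0.19, with adjusted p-values of 0.19 to 0.67. Between 12 h and 6 h edgeR called 0 members, with 1 (Slc30a1) at an unadjusted p under 0.05 and 1 called by DESeq2, and 0.974% of all genes called (0.482% higher and 0.492% lower). Slc30a1 was the 1 tested member without overlap, against 19% of all genes. The 24 h label against 12 h had 2 members higher (Slc30a4 and Slc30a7) and 2 lower (Slc30a6 and Slc30a9), with 54.5% of all genes called (26.9% higher and 27.6% lower). Groups did not overlap for 3 tested members, against 60.7% of all genes. Without library 2 of the 12 h group only Slc30a6 and Slc30a7 were called there.

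The 24 h label at 100 µM against the 200 µM label gave 0 calls among members by edgeR, by DESeq2 and by limma-voom, and 0 members at an unadjusted p under 0.05. The ratios ran from -0.09 (Slc30a6) to 0.02, and 0% of all genes were called. Groups did not overlap for 0 tested members, against 3.39% of all genes. The interval for Slc30a1 was -0.19 to 0.18 on the log2 scale. The test of any difference among the 5 groups called 5 members (Slc30a1, Slc30a4, Slc30a5, Slc30a7 and Slc30a9), with 66.4% of all genes called. That count fell to 2 (Slc30a1 and Slc30a7) without library 2 of the 12 h group, library 1 of the 24 h label, library 3 of the 200 µM label or library 1 of the control, and to 3 without library 3 of the 12 h group or of the 24 h label or library 2 or 3 of the control.

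**Figure D3:**
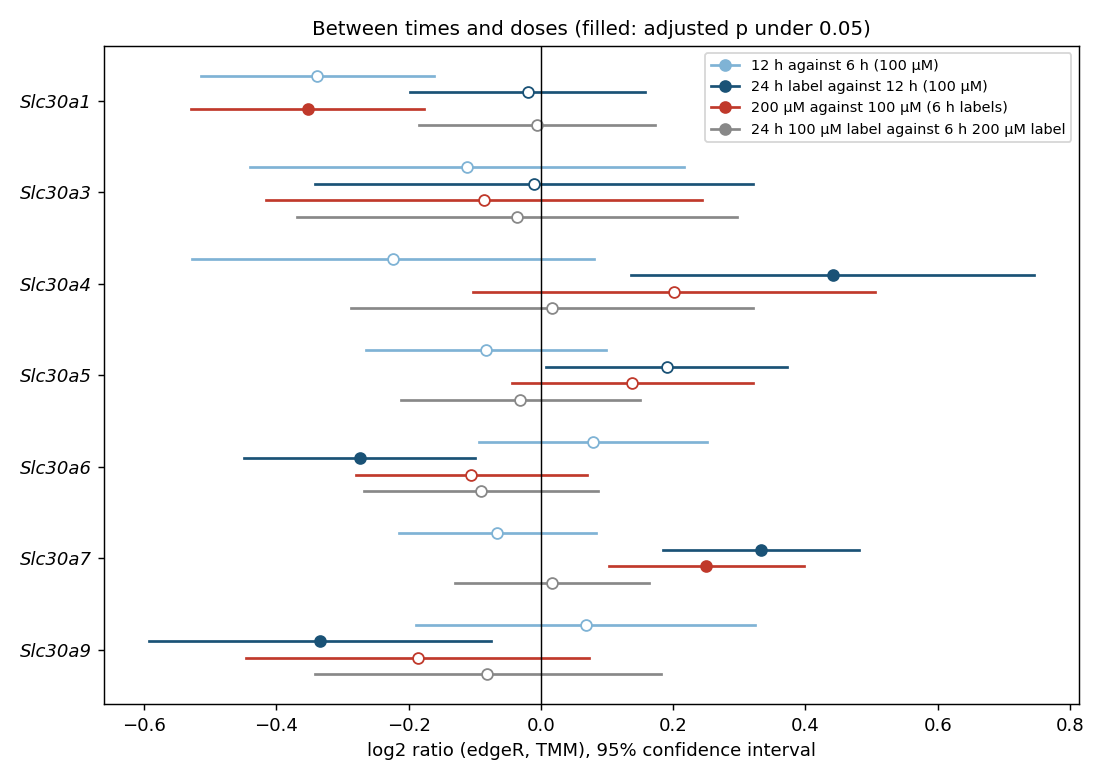
Log2 ratio of the 7 tested members between times and doses (horizontal axis, edgeR with TMM scaling), with 95% confidence intervals; filled points have an adjusted p under 0.05. Slc30a7 lies at 0.33 for the 24 h label over 12 h and at 0.25 for 200 µM over 100 µM, while Slc30a1 lies at -0.35 for 200 µM over 100 µM; with library totals Slc30a7 is at 0.00 and -0.09.

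Against control under the 24 h and 200 µM labels, the directions of Slc30a5 and Slc30a7 depended on the scaling. Slc30a3, Slc30a4, Slc30a6 and Slc30a9 kept their direction there but changed in size. With library totals in place of TMM factors the median of all genes shifted to -0.40 under both the 24 h and the 200 µM label against control. On that scale, beside the values of Slc30a4, Slc30a5 and Slc30a7 given above, Slc30a3, Slc30a6 and Slc30a9 were called lower under both. Relative to the median of all genes, Slc30a5 stood 0.27, Slc30a7 0.29 and Slc30a1 1.66 above it under the 24 h label. A scaling factor moves all genes of a library alike, so these distances hardly change with the scaling. They cannot show which scaling is right.

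For some members library 2 held the same place in most groups. Library 2 was the lowest of the 3 in all 5 groups for Slc30a1, Slc30a4 and Slc30a5, and the highest in 4 of 5 for Slc30a3. For Slc30a6, Slc30a7 and Slc30a9 it was the lowest in 3 of 5. The summed fibroblast markers of library 2 were the highest in every group. They were at 8170 CPM after 6 h at 100 µM, 7300 CPM after 12 h, 6840 CPM under the 24 h label, 7100 CPM under the 200 µM label and 8800 CPM in control. The part of that level in these results was not tested. Within library numbers 1, 2 and 3, the log2 ratio of Slc30a4 under the 24 h label to control was 0.62, 0.14 and 0.45, and that of Slc30a7 was 0.33, 0.21 and 0.27.

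Other genes of zinc handling are given from lists chosen with earlier results of these data known. Of the importers of the Slc39 family, 13 were in the table and 10 were tested. After 6 h and after 12 h, 1 was higher and 0 lower than in control, namely Slc39a13, an importer of the early secretory pathway, with log2 ratios of 0.38 (adjusted p = 0.000548) and 0.25 (adjusted p = 0.0299, and 0.0523 with library totals), both by edgeR. Under the 24 h label and under the 200 µM label 1 was higher and 4 lower. Of all tested genes 17.2%, 6.33%, 61% and 60.5% were called after 6 h, after 12 h and under the 24 h and 200 µM labels, so the importers' counts lie near or below that share. The higher one, Slc39a11, stood at 0.56 and 0.52 (0.18 and 0.14, not called, with library totals). Among the lower ones, Slc39a3 stood at -0.66 and -0.58 and Slc39a14 at -0.45 and -0.39. At 200 µM over 100 µM, 1 importer was higher and 4 lower, against 53.6% of all genes called (26.5% higher and 27.1% lower). Slc39a14, Slc39a13 and Slc39a3 had the smallest p-values there, at -0.48, -0.42 and -0.52.

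Of 5 genes for metallothioneins and their sensor in the count table, 3 were tested, and both tested metallothionein genes were called higher by edgeR in every zinc group. Mt1 had log2 ratios to control of 4.98, 5.00, 3.67 and 3.70 and Mt2A of 3.94, 4.44, 2.55 and 2.57 for 6 h, 12 h, the 24 h label and the 200 µM label. Both were lower at 200 µM than at 100 µM, at -1.28 and -1.37, as Slc30a1 was. Mtf1, the gene of the zinc sensor, was called higher under the 24 h label (0.63) and the 200 µM label (0.65) and at 200 µM over 100 µM (0.56), and stood at 0.08 and 0.03 after 6 h and 12 h. Secretory zinc enzymes numbered 5 in the count table, with 3 tested, and 0 were called after 6 h and after 12 h. Mmp9, a secreted matrix protease, rose under the 24 h label (2.27) and the 200 µM label (1.86) against control and at 200 µM over 100 µM (2.02). Alpl (-0.76), a phosphatase, and Nt5e (-0.70), which makes adenosine, were called lower under the 24 h label, and Nt5e at 200 µM over 100 µM (-0.52). The Alpl call (adjusted p = 0.0494, means of 0.83 against 1.40 CPM) and that of Nt5e between doses (0.0489, both by edgeR) were at the threshold. Of all tested genes 17.2%, 6.33%, 61% and 60.5% were called after 6 h, after 12 h and under the 24 h and 200 µM labels. Between doses it was 53.6%.

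**Figure D4:**
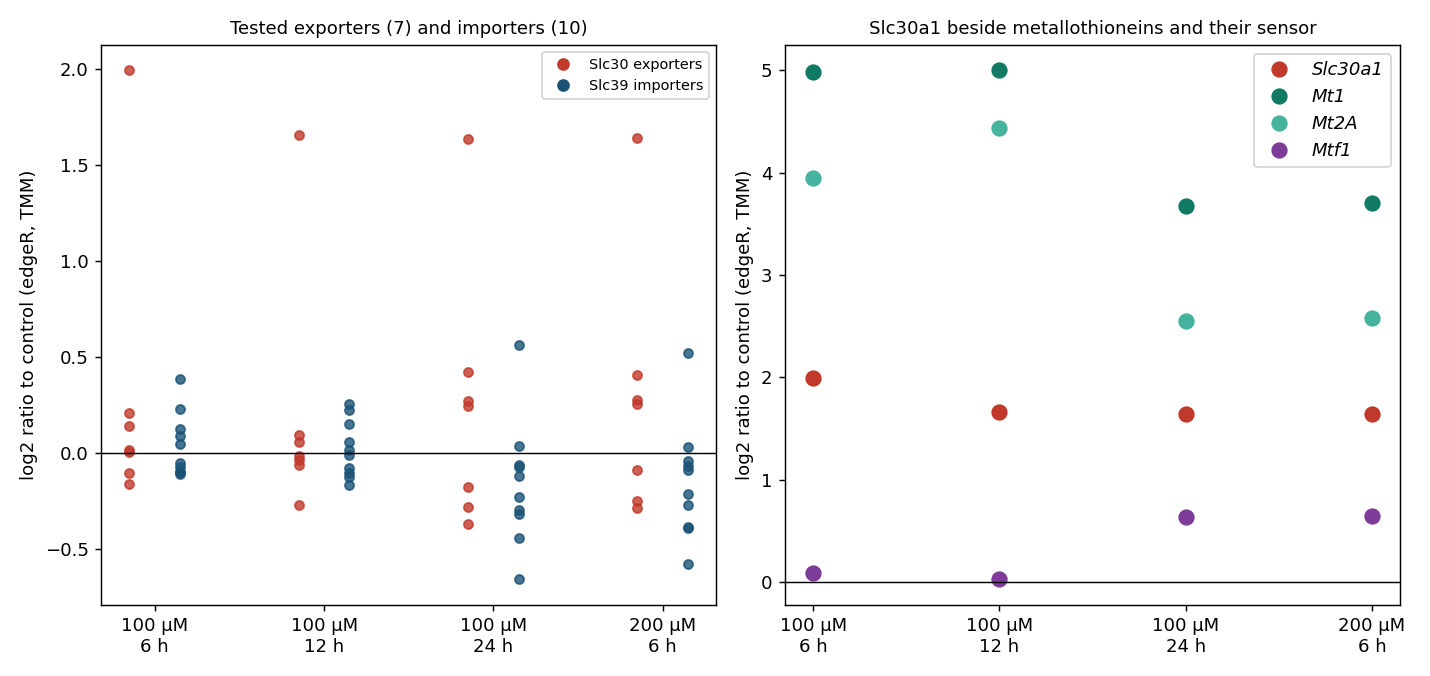
Log2 ratio to control (edgeR, TMM scaling) in the 4 zinc groups for the 7 tested exporters and 10 tested importers (left, a point per gene) and for Slc30a1, Mt1, Mt2A and Mtf1 (right). Slc30a1 is the single exporter above 0.5 in each group, and Mt1 lies between 3.67 and 5.00.

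Over all 15 libraries the genes whose log2 CPM followed Slc30a1 most closely were P4ha2, a subunit of collagen prolyl hydroxylase, with a Pearson r of 0.968, Mt1 (0.952), Paqr8, a membrane progestin receptor gene (0.951), the lipid phosphatase gene Plpp2 (0.946), the prostaglandin reductase gene Ptgr1 (0.939) and the lactate dehydrogenase gene Ldha (0.935). These values describe libraries that share depth and scaling, with the controls apart from the rest. Within the 12 zinc libraries the same genes had r of 0.338 to 0.700, and none of the 6 was among the closest 6 by Spearman's rho.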

How the data were processed

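The authors deposited whole-number read counts per gene for 15 libraries, without normalization. Per the submitters' processing notes, the tools were TopHat, DESeq, bcl2fastq and CASAVA 1.8 and the build was rn4, with no roles stated. Not given in the sources used here are the read counter, annotation, strand setting and treatment of multiply matching reads. Identifiers were matched to RefSeq symbols of assembly GRCr8 (16671 of 16832). Promoter coordinates are RefSeq's and were not joined to the rn4 counts.

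Counts were tested with edgeR 4.0.16 in R 4.3.3 (quasi-likelihood F test, robust, TMM factors, all 15 libraries, group only). The filterByExpr rule left 10575 genes, 6257 being removed. P-values were adjusted by Benjamini-Hochberg over these genes, with a threshold of 0.05. Standard errors and 95% intervals come from this fit. Exact counting intervals, of ratios of summed counts, cover counting error only.

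The members, gene lists, tests and the rule for naming the 6 closest genes (highest Pearson r with the member of smallest overall p) and up to 3 genes a list (smallest adjusted p) were chosen with earlier results of these data known. Alternatives were DESeq2 1.42.0, DESeq2 size factors, library totals, no filter, a stricter filter, the 6 libraries compared, limma-voom (limma 3.58.1), a replicate block and each library left out. Terms or fits prompted by the data were the heart transcript term, fits without the 24 h or 200 µM label, and, for Slc30a10, DESeq2 without a filter and plain library totals.

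Same-numbered libraries deviated together in the 24 h label against control, with r across genes of 0.141, 0.304 and 0.123 for numbers 1, 2 and 3. There 5 of 6 libraries correlated best with their own number. Numbers can be read as pairs there, from the data and not from the labels. The main fit used group only and took no account of such pairs, which entered only through the replicate block. Between the 24 h and 200 µM labels r was also over 0.1 (0.231, 0.724 and 0.130), but the closest libraries were crossed (number 1 with 3 and 3 with 1) and 2 of 6 correlated best with their own number. In every other comparison at least 1 number was at most 0.1. The tests were checked on simulated data. The value of 1 marker gene is not reported here.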

Additional observations from a re-analysis of the deposited data

Results flagged for a closer look

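Members whose response differed between doses or times by edgeR's test of that difference were singled out. At 200 µM over 100 µM these were Slc30a1, with a log2 ratio of -0.35, and Slc30a7, with 0.25. Under the 24 h label over 12 h they were Slc30a4 (0.44), Slc30a6 (-0.27), Slc30a7 (0.33) and Slc30a9 (-0.33). With library totals Slc30a7 was called in neither comparison and Slc30a4 was at 0.11 (adjusted p = 0.509 by edgeR). Slc30a10, which the filter kept out of the test, was singled out for counts above those of the control libraries, with 23 counts summed under the 24 h label and 12 under the 200 µM label, against 1 in control.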

How the results depend on the processing

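The rise of Slc30a1 over control kept its direction and call in all 4 zinc groups under every alternative run. For the members called, leaving out 1 library gave 1 in every case for 6 h and for 12 h against control, 3 to 5 for the 24 h label, 3 to 4 for the 200 µM label, 2 to 3 between doses, 0 to 1 for 12 h against 6 h, 2 to 4 for the 24 h label against 12 h and 2 to 6 for any difference among groups. The term for heart transcripts gave 3 under the 24 h label, 3 under the 200 µM label and 3 for any difference. Between doses, library totals gave 4, all lower (Slc30a1, Slc30a3, Slc30a6 and Slc30a9). For 12 h against 6 h, no filter, DESeq2, the replicate block and the fit of 6 libraries gave 1 each, against 0.

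With library totals Slc30a5 turned to -0.13 (24 h label) and -0.097 (200 µM label) and Slc30a7 to -0.107 and -0.123 against control and to -0.094 between doses. Then 16.2% of called genes were higher under the 24 h label and 16% under the 200 µM label, against 48.7% and 48.5% with TMM, 42.1% against 52.9% for 6 h, 34% against 53.1% for 12 h, 14.6% against 49.4% between doses and 16.2% against 49.4% for the 24 h label over 12 h. With library totals the median log2 ratio of all genes was -0.40 under both labels against control. It was -0.029 for 6 h, -0.042 for 12 h, -0.352 between doses and -0.341 for the 24 h label over 12 h.

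Among all genes, calls for 6 h against control were 1819, and 1204, 1210 and 1026 without library 1 or 3 of the 6 h group or library 1 of the control, or 933 with the heart term. For 12 h against control they were 669, and 1165 with the replicate block, 271 to 639 with a library left out and 50 with the heart term. For the 24 h and 200 µM labels they were 6449 and 6402, and 3880 and 3898 with the heart term. For 12 h against 6 h they were 103, and 200 by DESeq2, 223 with the block, 223 in the fit of 6 libraries, 50 to 93 with a library left out and 51 with the heart term. The causes were not tested.

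The replicate block, which pairs library numbers, called 7 members under the 24 h label, 5 under the 200 µM label, 5 for the 24 h label over 12 h, 6 for any difference and 0 between the 24 h and 200 µM labels. Over all genes the block called 6927 under the 24 h label, against 6449 in the main fit. It called 6835 against 6402 under the 200 µM label, and 6227 against 5766 for the 24 h label over 12 h. Libraries that correlated best with their own number were 6 of 6 between doses, 5 for the 24 h label and 4 for the 200 µM label against control, 3 for 12 h against control, 12 h against 6 h and the 24 h label against 12 h, and 2 for 6 h against control and between the 24 h and 200 µM labels. Of the values of single members under the alternatives other than those prompted by the data, 685 kept direction and side of the threshold, 30 lost the call, 22 gained it, 5 reversed and 42 changed sign without a call either way. Depth limits Slc30a2, Slc30a8 and Slc30a10.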
